A study of Mus musculus with 6 samples.

Results

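The deposited list of WT-specific H3K9me3 peaks, those called in WT Bergmann glia (BG) and not in Setdb1 mutant BG, was read here for 3 oligodendrocyte genes, Mbp, Olig1 and Olig2. Members were chosen by the gene name that the list gives to each peak, the gene with the nearest transcription start site (TSS). The presence and number of peaks at these genes are what selected them and are no finding. The rule took 16 of 34673 peaks, 8 named for Mbp, 7 for Olig2 and 1 for Olig1. The libraries behind the list were 2 H3K9me3 ChIP libraries of mutant BG (labelled MT), 2 of WT BG, and 2 control libraries whose labels name both input and IgG, all from C57BL/6 mouse cerebellum at postnatal day 10. For its RNA sequencing, the study describes mutant BG as sorted from Setdb1 mGFAP-CKO mice carrying Nes-GFP and control BG from Nes-GFP mice. For ChIP, its methods name only BG isolated by the same steps. In Nes-GFP mice GFP follows Nestin regulatory sequence. In the CKO mice a Cre under the mouse GFAP promoter removes floxed Setdb1. That Cre also acts in granule cells and oligodendrocytes of the cerebellum, and a small part of the GFP-positive cells in Nes-GFP mice are oligodendrocytes. Whether libraries came from separate animals is not stated. The list holds 1 merged value per peak, so it gives no value for a mutant, WT or control library, no replicate error, no depth and no test of mutant against WT. Expression was not measured here, so the labelled cell type could not be checked against its markers.

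H3K9me3, the trimethylation of lysine 9 on histone H3, is a mark of silent chromatin that Setdb1, a histone methyltransferase, lays down on endogenous retroviruses and on some genes. BG are radial astroglia whose cell bodies lie beside Purkinje cells. Oligodendrocytes are the glia that wrap axons in myelin. Olig2 and Olig1 are neighbouring basic helix-loop-helix transcription factor genes. Olig2 is needed to specify the oligodendrocyte lineage and Olig1 acts in its maturation. Mbp encodes myelin basic protein, which holds the faces of the compact myelin sheet together. The Mbp gene has an early start site for the long golli transcripts, which are also made outside oligodendrocytes, and later start sites for the classic myelin transcripts.

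Of the 8 Olig peaks, 4 are shown, since the values turn on them. They are the highest-scoring, the next highest with its retroviral repeat, the one with most CpG per kb over its whole length, and the single peak named for Olig1. Each line gives the central 300 bases of the peak on the plus strand of GRCm38 (mm10) from RefSeq, and capitals mark CpG dinucleotides, the usual site of DNA methylation.
Olig2 peak with score 12.5, chr16:91188210-91188509: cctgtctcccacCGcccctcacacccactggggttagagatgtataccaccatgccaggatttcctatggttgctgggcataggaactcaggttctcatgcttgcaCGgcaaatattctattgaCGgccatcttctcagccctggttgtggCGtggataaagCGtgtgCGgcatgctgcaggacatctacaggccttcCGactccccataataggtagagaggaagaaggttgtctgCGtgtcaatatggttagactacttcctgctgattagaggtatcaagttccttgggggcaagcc
Olig2 peak with score 10.6 on an LTRIS2 repeat, chr16:91196150-91196449: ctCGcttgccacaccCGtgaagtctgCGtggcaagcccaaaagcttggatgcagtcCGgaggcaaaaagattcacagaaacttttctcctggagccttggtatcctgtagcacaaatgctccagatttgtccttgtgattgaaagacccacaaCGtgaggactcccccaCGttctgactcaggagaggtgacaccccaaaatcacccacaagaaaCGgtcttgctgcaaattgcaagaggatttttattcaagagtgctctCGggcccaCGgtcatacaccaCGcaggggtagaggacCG
Olig2 peak with score 8.02, chr16:91211543-91211842: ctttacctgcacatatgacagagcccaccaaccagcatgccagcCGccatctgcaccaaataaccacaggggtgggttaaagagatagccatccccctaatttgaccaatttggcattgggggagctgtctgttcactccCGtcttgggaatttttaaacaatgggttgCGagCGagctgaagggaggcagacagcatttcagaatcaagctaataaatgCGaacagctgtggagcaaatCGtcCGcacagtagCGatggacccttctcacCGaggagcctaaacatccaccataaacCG
Olig1 peak with score 5.78, chr16:91277895-91278194: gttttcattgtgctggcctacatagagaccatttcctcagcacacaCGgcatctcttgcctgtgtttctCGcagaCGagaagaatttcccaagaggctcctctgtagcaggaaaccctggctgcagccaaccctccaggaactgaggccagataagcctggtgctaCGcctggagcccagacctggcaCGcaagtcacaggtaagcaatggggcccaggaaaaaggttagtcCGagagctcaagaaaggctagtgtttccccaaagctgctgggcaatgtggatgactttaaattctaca
These windows hold 8, 11, 10 and 6 CpG, in the order shown.

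Most peaks named for Olig2 lay upstream of the gene and none was centred on it. Olig2 (gene ID 50913) spans positions 91225550 to 91228677 of chromosome 16 on the plus strand, 3.128 kb, and no peak was centred inside it. Of its 7 peaks, 6 fell upstream, over 61 kb, and 1 downstream. Olig1 (gene ID 50914), at 91269769 to 91271939 on the same strand, starts 44.2 kb after Olig2, and no peak was centred inside it either. The naming rule shapes this split. Because Olig1 starts so close after Olig2, most of the 100.3 kb that can be named for Olig2 lies upstream. The gene body is a small part of that stretch, so nothing is read from the split. The closest peak to the Olig2 TSS was 8.751 kb away and the closest to the Olig1 TSS 8.275 kb away.

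The 2 strongest Olig peaks were neighbours. The peak at 91187954 to 91188765, 37.19 kb upstream of Olig2, had the authors' score of 12.5 and was 811 bp wide. Only 7.29% of the list's peaks scored as high or higher, and it ranked 86 among the peaks of chromosome 16. The next peak, at 91195985 to 91196613 and 29.25 kb upstream, scored 10.6 (12.7% of the list at or above) over 628 bp. Its centre lay on LTRIS2, a long terminal repeat of an ERV1 retrovirus, while the stronger peak was centred on no repeat. They stood 7.22 kb apart, and these were the only Olig peaks wider than 500 bp, the narrowest width in the list.

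The other 4 upstream peaks were weaker. The peak farthest from the gene, at 91156095 to 91156595, scored 6.74 at 69.2 kb upstream and lay on no repeat. By the full RefSeq span of 4932438H23Rik, a minus-strand gene starting at 91130103, this peak is nearer to that gene. Its Olig2 name holds for curated transcripts. The peak at 91183097 to 91183597 scored 6.42 at 42.2 kb upstream, again on no repeat. Both peaks scored under the list's median of 7.06. The peak at 91211442 to 91211942, on no repeat and 13.86 kb upstream, scored 8.02, which 31.3% of the list reached. The peak nearest to Olig2, at 91216549 to 91217049 and 8.751 kb upstream, scored 6.42 and was centred on a B2_Mm2 element, a SINE repeat copied from RNA. Score did not follow closeness to the gene, since 2 lower-scoring peaks lay between the 2 strongest and Olig2.

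The peaks on the Olig1 side were the weakest. Between the 2 genes, 18.39 kb after the Olig2 TSS, the peak at 91243695 to 91244195 scored 5.78 on an MTEa repeat, a MaLR long terminal repeat. The single Olig1 peak, at 91277794 to 91278294 and 8.275 kb after its TSS, also scored 5.78 and lay on no repeat. A score of 5.78 is low in this list, since 94.7% of peaks reached it. All 8 Olig peaks were intergenic in the authors' annotation. In the RefSeq annotation of the same build, the first 4 lie in intron 1 of 2 of Gm41492, a predicted long noncoding RNA gene.

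**Figure D1:**
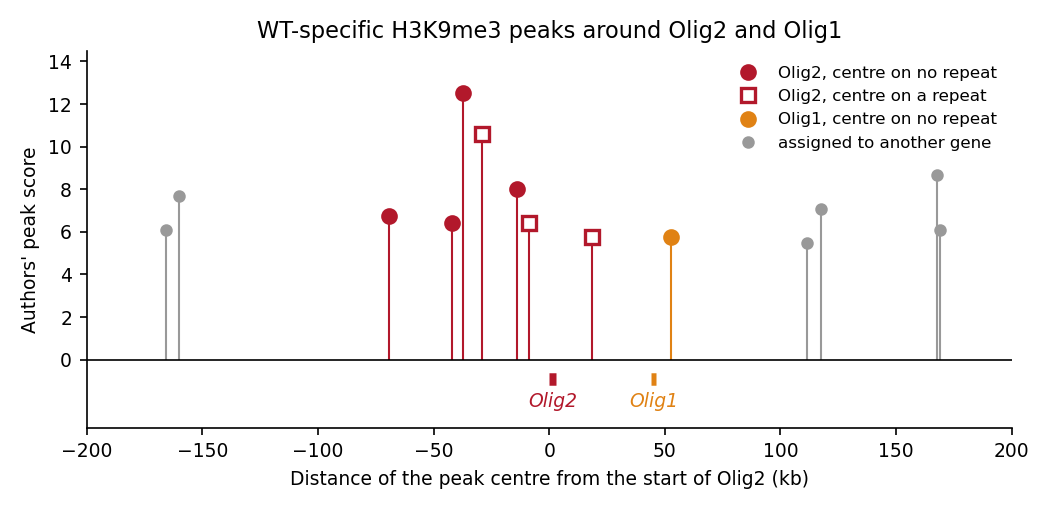
Authors' peak score (vertical axis, no unit given) against distance of the peak centre from the start of Olig2 in kb (horizontal axis), with squares for peaks centred on a repeat, circles for the others, grey for peaks named for another gene and thick bars for the genes. The 2 highest points, 12.5 and 10.6, stand 37.19 and 29.25 kb upstream of Olig2, and no peak stands on either gene.

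At Mbp the peaks were spread before, within and after the gene. Mbp (gene ID 17196) spans positions 82475091 to 82585637 of chromosome 18 on the plus strand, 110.5 kb. Of its 8 peaks, 3 were centred upstream, 3 inside and 2 downstream, over 153 kb in all. Their scores ran between 5.78 and 11.6 with a median of 6.9.

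The 3 upstream peaks were alike in score. The peaks at 82444884 to 82445384 and at 82446198 to 82446698 both scored 6.74 and stood 0.814 kb apart, 29.99 and 28.68 kb before the golli TSS. The first was centred on Lx6, an older L1 LINE of rodents, and the second on ORR1C1, a MaLR long terminal repeat. The third, at 82459079 to 82459579 and 15.79 kb upstream, scored 6.42 on no repeat. All 3 scored under the list's median.

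Within the gene, 2 of the 3 peaks flanked the classic start sites, which lie 79.3 kb after the golli TSS. The peak at 82550502 to 82551002 scored 7.38 and was centred 3.711 kb before a classic TSS, in intron 3 of 3 of a short golli transcript. The peak at 82557252 to 82557752 scored 7.06 and was centred 2.994 kb after a classic TSS, the shortest distance of all 16. The authors' annotation placed it in the 3' UTR of that golli transcript, in its exon 4 of 4, and the same bases are intron 1 in the 6 curated classic transcripts. It also overlaps exon 4 of 4 of Gm52337, a predicted long noncoding RNA. Neither flanking peak was centred on a repeat. The remaining inside peak, at 82497708 to 82498208 in golli intron 1, scored 5.78 and was centred on RLTR34D_MM, an ERVK long terminal repeat.

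The highest Mbp scores lay after the gene. The peak at 82588148 to 82588889, 741 bp wide, scored 8.99 (22.1% of the list at or above) on RLTR48C, an ERV1 long terminal repeat. The peak at 82597575 to 82598075 scored 11.6, was reached by 9.39% of the list and ranked 91 on its chromosome. Its centre lay in the last intron of Zfp236, a zinc finger gene on the opposite strand whose end is 7.96 kb from that of Mbp. The list named this peak for Mbp because the Mbp TSS, 43.32 kb away, was nearer than that of Zfp236, to which it assigned no peak.

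**Figure D2:**
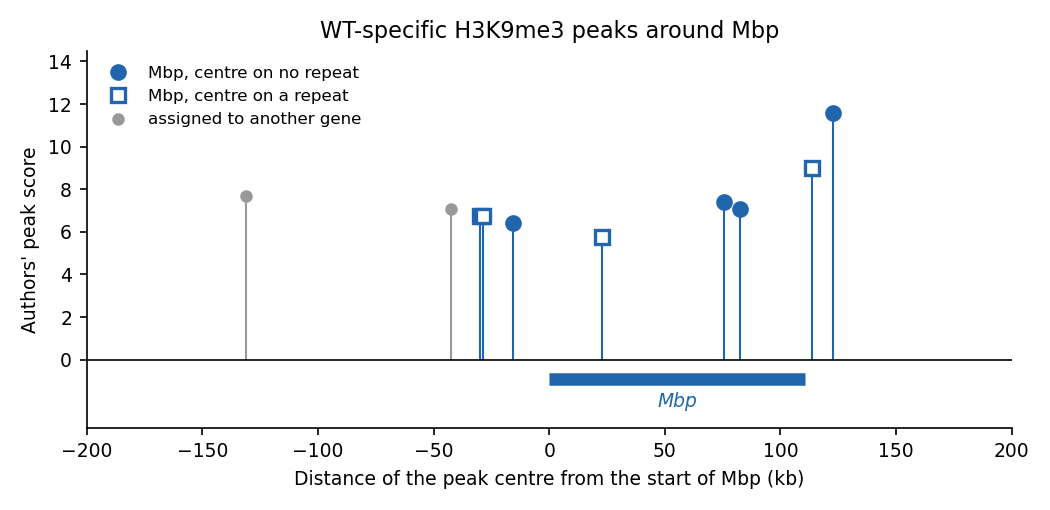
Authors' peak score against distance of the peak centre from the start of Mbp in kb, with squares for peaks centred on a repeat, circles for the others, grey for peaks named for another gene and a thick bar for Mbp. Of the 8 Mbp peaks, 3 stand over the gene, and the highest, 11.6, stands beyond its end; 2 upstream squares 0.814 kb apart overlap.

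Mbp had 8 peaks, a number that 487 of 21000 protein-coding genes (2.32%) reached. Olig2 had 7, which 683 genes (3.25%) reached. Olig1 had 1, and 10692 genes (50.9%) had at least 1. Because the members were chosen by their number of peaks in this list, nothing is read from these shares. The length over which a gene can be named this way varied: the stretch nearer to a gene's start than to any other's was 182.8 kb for Mbp, 100.3 kb for Olig2 and 73.62 kb for Olig1, against a median of 42.6 kb over protein-coding genes. Per length of that stretch, Olig2 had 69.8 peaks per Mb, Mbp 43.8 and Olig1 13.6, against 12.7 over the genome. These densities count the same peaks that chose the members, and their spread over other genes was not computed. Nothing is read from them either.

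In the 1 Mb centred on the start, Olig2 and Olig1, whose windows overlap, each had 24 peaks, a number reached by 24.5% of protein-coding genes. In windows of 500 kb that share was 14% for both genes, and in windows of 2 Mb it was 18.8% for Olig2 and 14.8% for Olig1. Mbp had 19 in 1 Mb, reached by 43% of genes (33.3% in 500 kb and 35.8% in 2 Mb), and the median over genes in 1 Mb was 17. All these windows also count the peaks that chose the members, so nothing is read from these shares. At Olig2, 17 of the 24 peaks in 1 Mb were named for 9 other genes. Urb1, a ribosome assembly gene, and Il10rb, an interleukin receptor subunit gene, had 3 each, and Ifnar2, an interferon receptor subunit gene, 4932438H23Rik, Mir6367 and Dnajc28 had 2 each. Mrap, Son and Olig1 had 1 each. Around Olig1, Itsn1 took the place of Mrap. At Mbp, 11 of the 19 were named for 5 other genes, of which Galr1, a galanin receptor gene, and 2210420H20Rik had 3 each, 4930592I03Rik and Mir5127 had 2 each, and Mir5112 had 1. The next protein-coding genes were 4932438H23Rik, 95.4 kb before Olig2, Ifnar2, 101 kb after Olig1, Galr1, 68.3 kb before Mbp, and Zfp236 after it.

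The median score of the 16 peaks was 6.74 (range 5.78 to 12.5), against 7.06 over the list (4.49 to 784.3), and 7 of 16 (43.8%, 95% Wilson interval 23.1 to 66.8%) reached the list's median, against 51.7% of all peaks. The interval covers counting error only, and peaks of 1 gene are not replicates. Scores under 10 were whole multiples of 0.3209 within 0.0046, so the 3 lowest peaks, at 18 steps, and the 2 medians, at 21 and 22 steps, differ by few steps. The sources used here do not say what a step counts.

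**Figure D3:**
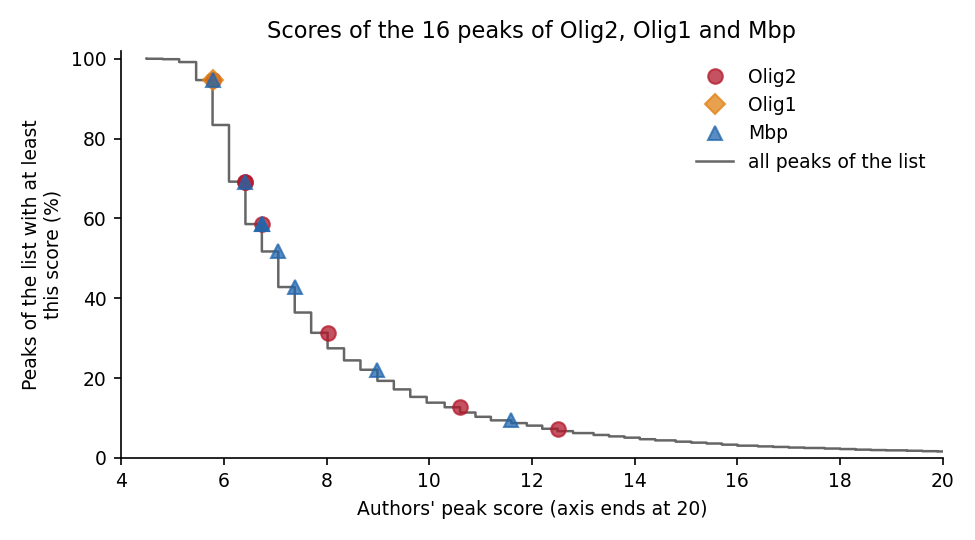
Share of the list's peaks with at least a given score (vertical axis, %) against the authors' score (horizontal axis, ending at 20), with the 16 peaks marked by gene and equal scores drawn on top of each other. One peak of each gene stands at 5.78, and the Olig2 peaks at 10.6 and 12.5 and the Mbp peak at 11.6 stand apart from the other 13.

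The peaks were mixed in what they covered. Of the 16, 7 (43.8%, 23.1 to 66.8%) were centred on a repeat, 3 at Olig2 and 4 at Mbp, against 54% of all peaks. Of these 7, 5 were long terminal repeats, 31.2% of the 16 against 26.6% of the list, and 1 each was a LINE and a SINE. Intergenic peaks made up 12 of 16 (75%, 50.5 to 89.8%), against 59.4%, and 3 were in introns. A 3' UTR held 1 (6.25%, 1.11 to 28.3%), against 0.819%. None of the 16 was at a promoter, a class that took 0.805% of the list. The narrowest width, 500 bp, was that of 13 of 16 (81.2% against 77.1%). All 16 lay within 100 kb of the start, against 73.9% of the list, with a median distance of 25.76 kb against 37.4 kb. Naming by the nearest start set this, since the stretches named for Mbp, Olig2 and Olig1 were 182.8, 100.3 and 73.62 kb long. Nothing is read from these distances. The intervals given here treat peaks as separate draws, which peaks of 2 loci are not, so no difference from the list is read from them.

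Most of the repeats were ones that the list held many times. LTRIS2 carried 97 peaks with a median score of 7.38, and the Olig2 peak on it ranked 15 among them. B2_Mm2 carried 132 peaks, where the Olig2 peak ranked 64, and MTEa 122, where it ranked 104. At Mbp, Lx6 carried 81 peaks and ORR1C1 62, with the Mbp peaks at ranks 40 and 38. The other 2 repeats were rare in the list, RLTR34D_MM with 4 peaks, where the Mbp peak ranked 3, and RLTR48C with 2, where it ranked 1. Reads from repeats were placed by the authors at 1 best location, so the value of a peak on a repeat also depends on how that copy's reads were placed, which was not tested.

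The Olig peaks held more CpG than the Mbp peaks in the median, with ranges that overlapped. The 8 Olig peaks held a median of 22.7 CpG per kb (5.99 to 33.9), the 8 Mbp peaks 9.98 (4.04 to 22), and the list 12. Of the 8 Olig peaks 6, and of the 8 Mbp peaks 3, were above the list's median. The Olig2 peak with score 8.02, shown above, had the most, 33.9 CpG per kb, a density that 2.74% of the list reached. The 2 strongest Olig2 peaks had 23.4 and 25.4 CpG per kb. The lowest Olig2 value, 5.99, was that of the B2_Mm2 peak. GC content was near that of the list, with a median of 50.3% (44.6 to 54.9%) over the 16 peaks against 49.1%. These values are a description, with no test, and the 2 Olig genes share 1 locus.

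**Figure D4:**
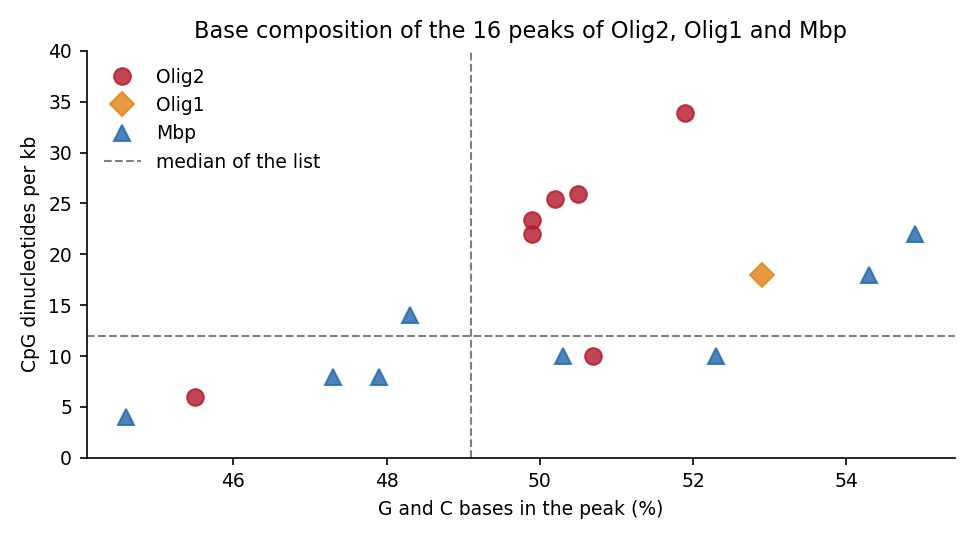
CpG dinucleotides per kb (vertical axis) against G and C bases in % (horizontal axis) for the 16 peaks, 1 point each, with dashed lines at the medians of the list, 12 CpG per kb and 49.1% GC. Of the Olig2 points, 5 stand between 22 and 33.9 CpG per kb at 49.9 to 51.9% GC, above the Mbp points of like GC content. Another Olig2 point in that GC range, at 50.7% GC, stands at 9.98 CpG per kb, level with the Mbp point at 50.3% GC.

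The letters of a binding site were looked for as well, since the study places Setdb1 with Nfix, a transcription factor of the NFI family that acts in glial development. TTGGCA, the core of an NFI site, searched on both strands, was in 5 of 16 peaks (31.2%, 14.2 to 55.6%), against 29.1% of the list's peaks. It was in 1 of 8 Olig peaks, the one with score 8.02, at 91211653 to 91211658 on the plus strand, and in 4 of 8 Mbp peaks. Over 500 bp peaks alone it was in 4 of 13 (30.8%), against 26.4% of the list. The full palindrome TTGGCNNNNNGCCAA was in none of the 16 and in 13 of 34600 peaks of the list. A match is a description of letters and says nothing of binding.

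In a list of 28 genes of the oligodendrocyte lineage, chosen with earlier results known, 18 (64.3%) had at least 1 peak, against 50.9% of all protein-coding genes. Without the 3 members it was 15 of 25 (60%). The stretch that can be named for each gene was not taken into account, so nothing is read from these differences. Of the transcription factor genes 7 of 9 had a peak, of the myelin and membrane protein genes 6 of 8, of the myelin enzyme genes 2 of 6 and of the progenitor markers 3 of 5. By the authors' gene names Mbp and Olig2 had the most, and next came Tcf7l2, a transcription factor of the Wnt pathway, with 6 peaks up to a score of 12.5, none closer than 34.6 kb to a TSS. Cldn11, the claudin of myelin tight junctions, had 4 peaks up to 8.66, the closest at 15.3 kb. Nkx6-2, Zfp488, Mobp and Enpp6 had 3 each, up to 9.95, 8.99, 8.99 and 8.34. This order depended on the counting: with peaks at most 10 kb apart joined, a rule applied to the list after seeing the data, Mbp and Tcf7l2 had 5 each and Olig2 4. By centres inside the gene, Lhfpl3 and Bcas1 had 4 each, Mbp, Tcf7l2 and Enpp6 3 each and Olig2 0. By the authors' gene names again, Mal, Lhfpl3 and Bcas1 had 2 each, and Olig3, Myrf, Mog, Opalin, Gal3st1 and Gpr17 had 1 each.

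Of that list, 10 genes had no peak named for them, a number that fell to 2, Ermn and Ugt8a, when peaks inside or within 50 kb of a gene counted. The share of all protein-coding genes under the 50 kb rule was not computed, so nothing is read from that fall. The 10 were the transcription factor genes Sox10 and Nkx2-2, the myelin and membrane protein genes Mag and Ermn, the enzyme genes Cnp, Ugt8a, Aspa and Fa2h, and the progenitor markers Pdgfra and Cspg4. Fa2h had 2 peaks centred inside it that were named for another gene. No gene of the list had a peak in the authors' promoter class. That class took only 0.805% of all peaks, so nothing is read from its absence. Marker genes of other cerebellar cells had at least 1 peak in 9 of 14 cases for BG and astroglia (64.3%), 6 of 10 for the granule neuron lineage (60%), 6 of 8 for Purkinje cells (75%) and 7 of 8 for microglia and vessels (87.5%). The share of all protein-coding genes was 50.9%. These are short, chosen lists with no test, so no difference between cell types is read from them.

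**Figure D5:**
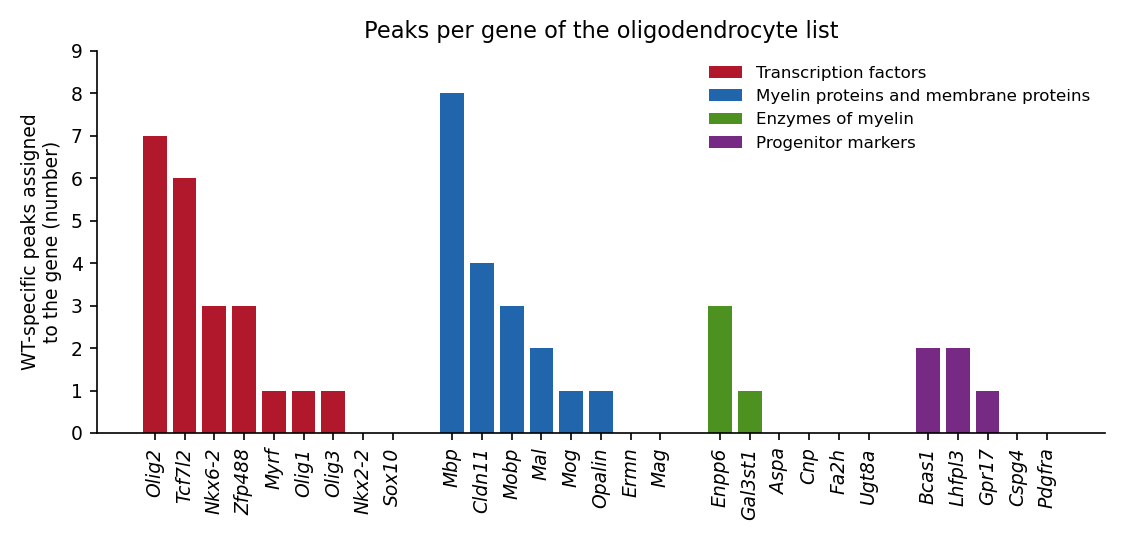
Number of WT-specific peaks named for each of the 28 genes of the oligodendrocyte list (vertical axis), with bars coloured by role and ordered by number within a role. Mbp with 8 and Olig2 with 7 are the tallest bars, Olig1 has 1, and 10 genes have none.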

How the data were processed

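Per the labels, 6 libraries of BG were sequenced: 2 mutant and 2 WT H3K9me3 ChIP and 2 control libraries. The authors aligned reads to mm10 with Bowtie2 (2.2.8 in the submitters' processing notes), placed a read with several matches at its 1 best location, allowed 1 tag per position, and called peaks with HOMER (4.10.1) at FDR 0.001 and 4-fold over the local 10 kb. The background of the call and the merging of libraries are not given in the sources used here, and a label in the list's heading can be read as input, mutant or both. The deposited score has no stated scale, and depth per sample is unknown. Columns of positions, widths and distances were used as deposited by the authors. Peaks were joined to RefSeq GRCm38.p6, the same build. The authors' distances of all 16 peaks were recovered within 2 bp, and the same nearest gene in 16 when only curated transcripts were used. Shares have 95% Wilson intervals (counting error only). Protein-coding genes are those with a curated mRNA. No test was made, because the list has no value per library.

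Genes named are the members, genes of the oligodendrocyte list with a peak (values for those with most), the next protein-coding genes, and genes with a peak within 500 kb of a member's start. Genes of the list without a peak were named after their values were seen, and some genes first put on the list are not reported here. Members and lists were chosen with earlier results of these data known. Scripts ran in Python 3.11.15 with pandas 2.3.3, and the nearest-gene and motif steps were tested on simulated data.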

Additional observations from a re-analysis of the deposited data

How the results depend on the processing

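The number of peaks of the 3 genes, 16, depended on how peaks were given to genes. It was 3 when only peaks centred inside a gene counted, 7 with a score at or above the list's median, 9 on no repeat, and 10 when peaks of 1 gene at most 10 kb apart were joined (5 at Mbp, 4 at Olig2 and 1 at Olig1). It stayed at 16 within 100 kb of the start, where naming by the nearest start left no room for change. It was also 16 with the nearest curated protein-coding start recomputed. Counting peaks inside or within 50 kb of a gene gave 16 too. There, 1 peak named for Galr1 came in and the farthest Olig2 peak fell out. Olig1 and Olig2 had no peak inside the gene, and Olig1 had none at or above the median score. Of the 28 oligodendrocyte genes, 18 had a peak by the authors' names, 10 by centres inside the gene, 26 inside or within 50 kb of the gene, and between 15 and 21 under the other alternatives. The share of all protein-coding genes was computed only for the authors' names, so the other counts say nothing particular to this list. The share on repeats was 28.6% (2 of 7) among peaks at or above the median score, 25% by soft-masked bases (34.7% of the list by that measure, against 54% by repeat at the centre) and 50% with the 50 kb rule, and the median score was 6.74 to 7.06. The share of genes with as many peaks around the start moved with the window at all 3 genes, as given with those counts. Peaks per Mb were 20 to 22 at Mbp and 25 to 30 at the Olig genes in windows of 2 Mb and 500 kb. No paired analysis was possible because the list merges the libraries, and for the same reason no library could be left out. Depth was not known, so a gene without a peak in the list cannot be called free of H3K9me3, nor can mutant and WT levels be compared.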
